A study of Rattus norvegicus with 9 samples.

Results

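The transcripts described here were strongly lower in PC12 cells given erastin and only part of the way back when PQR NPs were given with it. They number 126 of the 41078 transcripts in the table, and of 25127 with a count in any library. PC12 is a rat cell line from a pheochromocytoma of the adrenal medulla, used as a neuron-like model, and every group was the same wild-type line. The 3 groups were untreated controls, cells given erastin, which the series calls its PD model, and cells given erastin and PQR NPs together, with 3 libraries each. PQR NPs are a nanodelivery system. What it is made of, and the doses and times used, are not stated in the labels. There was no group given PQR NPs without erastin, so the co-treated cells can be set only against erastin alone and against untreated cells.

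Erastin blocks the cystine/glutamate antiporter, through which cells import cystine to make glutathione. Glutathione is the cofactor with which the enzyme GPX4 reduces lipid peroxides, and when it runs out, iron-dependent lipid peroxidation can kill the cell, which is called ferroptosis. PC12 cells make and store catecholamines in secretory granules and stop dividing and grow neurites under nerve growth factor, so they are often used in work on dopaminergic neurons.

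The members were chosen from the values in all 9 libraries. CPM is the count scaled to a common library total, and it is not divided by transcript length, so a rank by CPM orders reads and not molecules. A member had a mean of 5 CPM or more in controls and of 0.5 CPM or more with erastin, and its log2 difference, taken after adding 0.5 CPM to each mean, was -1.5 or lower for erastin against control, -0.7 or lower for the co-treatment against control, and 0.5 or higher for the co-treatment against erastin. In addition, its highest erastin library had to lie below its lowest co-treated library, its highest co-treated library below its lowest control library, and its mean over all libraries under 1000 CPM. Order, direction and minimum size of these differences are therefore set by the choice, and the levels below are a description with no test.

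Of 11114 transcripts at 5 CPM or more in controls, 11086 also reached the minimum with erastin, and 562 of those were lower by the required size with erastin. Of these, 184 were also far enough below control under co-treatment, 150 of them stood clear of erastin as well, and 126 had libraries that did not overlap between groups. The limit on abundance removed none. Rows carry Ensembl transcript IDs without gene symbols. None of the table's IDs, 0 of 41078, matched the 47357 genes of the RefSeq table used here (assembly GRCr8), and members are described by their ID or their rank. For the same reason the cell line was not checked against marker genes. All 126 passed the filter on low counts of the test across all transcripts.

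Total counts were 34772755 to 40826754 per library, so a count of 0 allows up to 3 counts, or 0.0735 to 0.0863 CPM, for counting error alone. In bulk RNA, fewer cells of a kind and less RNA per cell cannot be told apart, and nothing in the labels ties replicates to separate cultures, so the spread between them may be technical.

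Together the members took 1.05%, 1.01% and 0.964% of the counts in the control libraries, 0.231%, 0.212% and 0.213% with erastin, and 0.522%, 0.529% and 0.523% under co-treatment. The group means were 1.01% ± 0.0427, 0.219% ± 0.0106 and 0.525% ± 0.00372 (SD, n = 3 each). The control libraries were the highest and the erastin libraries the lowest, with no overlap, as the choice of members requires. The most abundant member made up 8.2% of the members' summed control CPM, the first 10 made up 33.5% and the first 20 made up 50.7%, so the summed share rests on many transcripts.

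Level in controls ran from 5.18 to 828 CPM among the members, with a median of 43.8 CPM. With erastin the range was 0.727 to 221 CPM, with a median of 8.48 CPM, and under co-treatment it was 2.17 to 450 CPM, with a median of 20.5 CPM. The median member kept 20.7% of its control level with erastin (interquartile range 14.6% to 25.9%) and 52.4% under co-treatment (45.9% to 57.3%). In the co-treated cells the median member was 2.47-fold above its erastin level, and 86 of 126 were 2-fold or more above it. Set on the CPM scale, 38.6% of the level lost with erastin was back in the median member (interquartile range 31.6% to 43.8%). That share was 50% or more in 11 members and under 25% in 12.

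**Figure D1:**
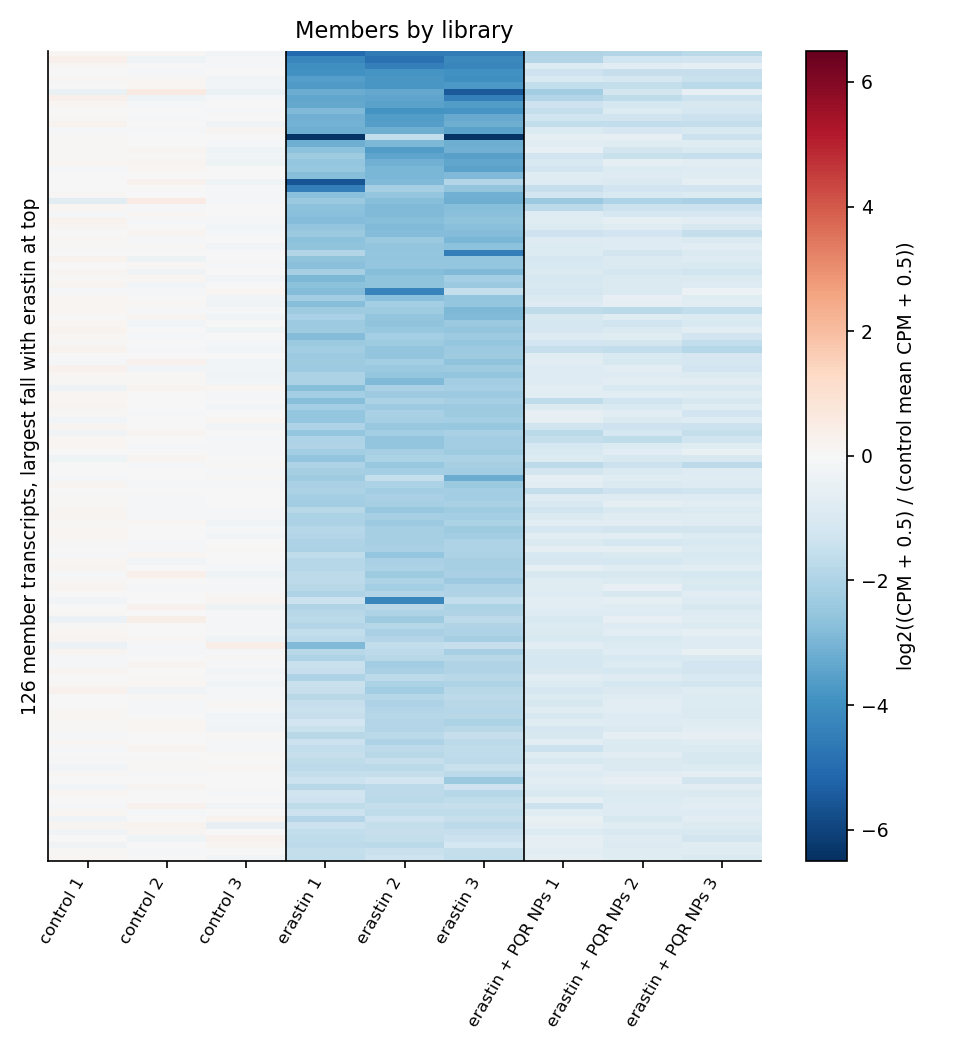
Each row is 1 of the 126 member transcripts and each column 1 library; colour gives log2 of CPM plus 0.5 relative to the control mean plus 0.5, with the largest fall with erastin at the top. The erastin columns are the darkest blue, with a median member at -2.11, -2.23 and -2.24 in erastin replicates 1, 2 and 3, and the co-treated columns are pale blue, at -0.93, -0.92 and -0.92.

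Relative to the control mean, the median member lay at 0.083, -0.0022 and -0.086 on the log2 scale in control replicates 1, 2 and 3. It lay at -2.11, -2.23 and -2.24 in the erastin libraries and at -0.93, -0.92 and -0.92 in the co-treated libraries. In these medians, libraries of a group differed by far less than the groups did, which the choice of members largely sets. A small shift ran through many members: control replicate 1 was the highest control library for 67 of 126 and control replicate 3 for 18, and erastin replicate 1 was the highest erastin library for 68. The same count over all transcripts is not given here, so the shift may not be particular to the members.

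**Figure D2:**
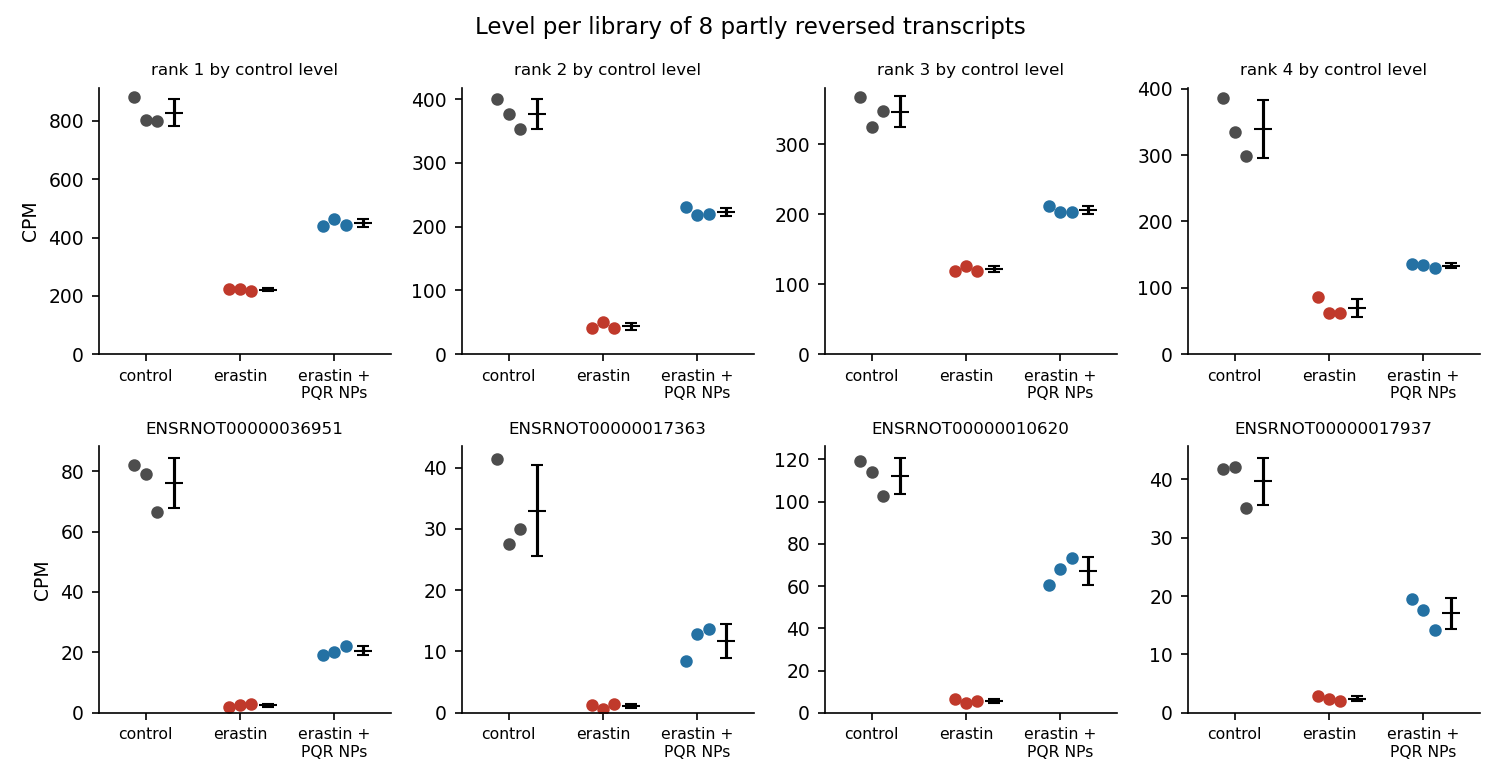
CPM in each library (points), with the mean and SD of 3 libraries (bars), for the 4 members with the highest control level and the 4 members given by ID. In all 8 the 3 groups are separate, and the co-treated points lie between the others; rank 1 by control level is at 828 CPM in controls, 450 CPM under co-treatment and 221 CPM with erastin.

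The member with the highest control level had 881, 804 and 798 CPM in controls, 223, 225 and 216 CPM with erastin, and 440, 465 and 444 CPM under co-treatment. Its libraries were tight within every group, and its co-treated level was 54.3% of control and 2.03-fold that with erastin. The member of rank 2 by control level had 400, 376 and 353 CPM in controls, 40.7, 50.01 and 41.0 CPM with erastin, and 231, 219 and 220 CPM under co-treatment. It was lower with erastin by 8.58-fold and had 53.9% of the lost level back, more than most members. At rank 3 were 368, 324 and 347 CPM in controls, 118, 127 and 120 CPM with erastin, and 212, 203 and 203 CPM under co-treatment, a difference of 2.85-fold between control and erastin, the smallest fold among the members.

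Rank 4 by control level was a member with less recovery, at 385, 334 and 298 CPM in controls, 85.5, 62.1 and 61.8 CPM with erastin, and 136, 135 and 130 CPM under co-treatment. The co-treated libraries agreed more closely than the others here, and 23.7% of the lost level was back. Rank 5 had 270, 331 and 298 CPM in controls, 93.8, 52.6 and 71.1 CPM with erastin, and 145, 157 and 151 CPM under co-treatment, with 34.6% back. Ranks 6 to 10 stood at 214 to 263 CPM in controls, 42.3 to 75.9 CPM with erastin and 114 to 147 CPM under co-treatment, and all 5 had between 38.4% and 49.3% of the lost level back.

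The largest difference between control and erastin was that of ENSRNOT00000036951. It had 82.1, 79.1 and 66.6 CPM in controls, 1.83, 2.63 and 2.82 CPM with erastin, and 19.3, 20.1 and 22.2 CPM under co-treatment. The erastin libraries were all near the bottom of the scale, and the mean was 31.3-fold below control (75.9 ± 8.26 against 2.43 ± 0.525 CPM, SD, n = 3). With PQR NPs added it was 8.46-fold above its erastin level (20.5 ± 1.51 CPM, SD, n = 3) and still at 27.0% of control, one of the lower co-treated levels.

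ENSRNOT00000017363 came second by fall, with 41.5, 27.5 and 30.0 CPM in controls, 1.26, 0.657 and 1.35 CPM with erastin, and 8.50, 12.9 and 13.7 CPM under co-treatment. Control replicate 1 stood above the other controls, and the group means were 33.0 ± 7.47, 1.09 ± 0.378 and 11.7 ± 2.80 CPM (SD, n = 3 each). The fall was 30.2-fold, and the co-treated level was 10.7-fold above erastin and 35.5% of control. The erastin values rest on 23 to 47 counts per library, so counting error is a larger part of them than in the abundant members.

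The member that stood highest above erastin under co-treatment was ENSRNOT00000010620. It had 119, 114 and 103 CPM in controls, 6.51, 4.69 and 5.38 CPM with erastin, and 60.3, 68.1 and 73.3 CPM under co-treatment. The mean was 20.3-fold below control with erastin and 12.2-fold above erastin with PQR NPs, at 59.9% of control (112 ± 8.42, 5.52 ± 0.921 and 67.2 ± 6.55 CPM, SD, n = 3 each). It had both the largest share of the lost level back, 57.9%, and the smallest share of the log2 fall left, 17.4%.

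ENSRNOT00000017937 was the next by rise that had not been named for its fall. It had 41.8, 42.1 and 35.0 CPM in controls, 2.80, 2.43 and 2.07 CPM with erastin, and 19.4, 17.5 and 14.2 CPM under co-treatment. The 3 groups were well apart, with means of 39.6 ± 4.00, 2.43 ± 0.364 and 17.1 ± 2.64 CPM (SD, n = 3 each), and the co-treated level was 7.01-fold above erastin and 43.0% of control.

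How much of the fall was left varied across the members. This share is the log2 difference of the co-treatment from control as a percent of that of erastin from control. Its median was 43.5% (interquartile range 36.1% to 51.0%), and it ran from 17.4% to 78.9%. With each co-treated library on its own the median was 43.2%, 42.5% and 44.1%, so it hardly differed between libraries. It was up to 33.3% in 21 members, above that and up to 50% in 70, and above 50% in 35.

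At the upper end stood the member of rank 106 by control level, with 8.61, 20.6 and 13.2 CPM in controls, 2.21, 1.66 and 1.12 CPM with erastin, and 2.27, 3.09 and 2.86 CPM under co-treatment. Its lowest co-treated library was above its highest erastin library by a factor of 1.03, and 8.6% of the lost level was back. The members of rank 26 and rank 59 came next. Rank 26 had 116, 111 and 122 CPM in controls, 28.7, 20.4 and 25.5 CPM with erastin, and 34.8, 43.4 and 35.8 CPM under co-treatment, with 72.6% of the fall left. Rank 59 had 56.8, 45.8 and 43.7 CPM in controls, 9.74, 7.77 and 9.12 CPM with erastin, and 17.1, 15.7 and 13.3 CPM under co-treatment, with 68.3% left. In these members the mean co-treated level was nearer to erastin than to control on the log2 scale, as in all 35 members above 50%. On the CPM scale this held for most members, as only 11 had 50% or more of the lost level back.

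**Figure D3:**
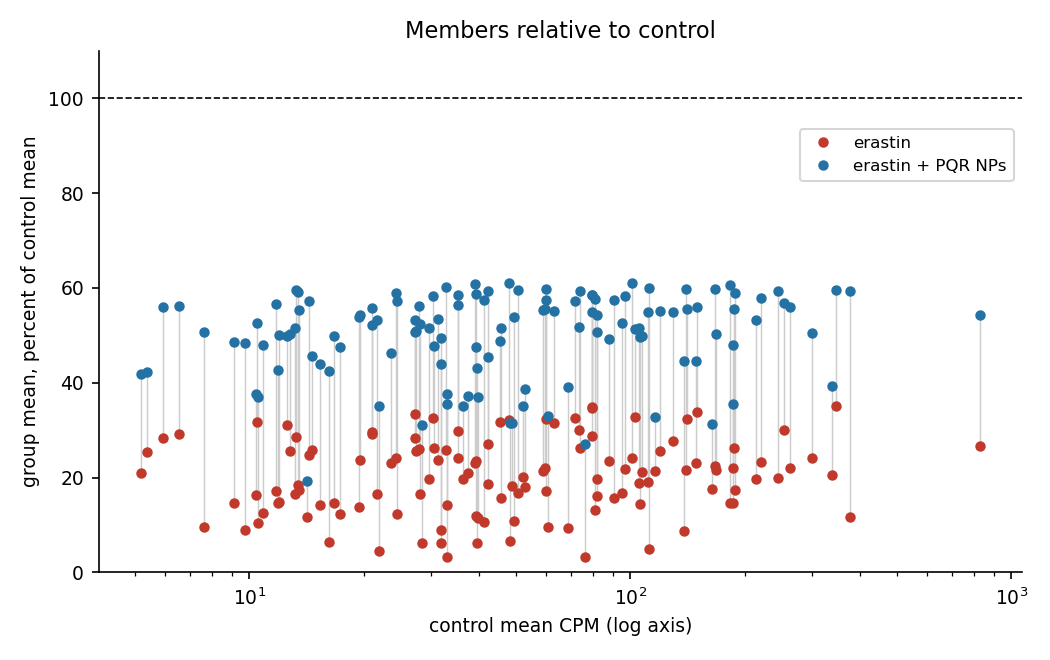
Mean level with erastin (red) and with erastin plus PQR NPs (blue) as percent of the control mean, for each of the 126 members, against the control mean in CPM on a log axis; a line joins the points of 1 member. Erastin points lie between 3.19% and 35.1% and co-treated points between 19.3% and 61.0%, at low and high control levels alike.

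Members were spread over the range of abundance. Of the 126, 29 (23.0%) had 5 to 20 CPM in controls, 64 (50.8%) had 20 to 100 CPM and 33 (26.2%) had 100 CPM or more. Among all 11114 transcripts at 5 CPM or more in controls the shares were 34.1%, 46.6% and 19.3%. The median share of the fall left was 42.5%, 43.5% and 44.1% in these 3 tiers. The median co-treated level was 49.9%, 52.9% and 54.9% of control. The median erastin level was 16.4%, 20.6% and 21.6% of control. Counting error is larger at low levels and the added 0.5 CPM weighs more there, and these tiers were not compared by a test.

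By size of the fall, 16 members were lower with erastin by 3 or more on the log2 scale, 67 by 2 to 3 and 43 by less than 2. The median co-treated level was 42.8%, 51.5% and 55.5% of control in these classes, while the median part of the lost CPM that was back was 38.9%, 41.3% and 36.7%. The share of the log2 fall left was 33.3%, 38.3% and 49.6%, an order that the choice of members partly sets, because all had to stay at least 0.7 below control. In fold terms, 88 members were 4-fold or more and 15 were 10-fold or more below control with erastin.

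**Figure D4:**
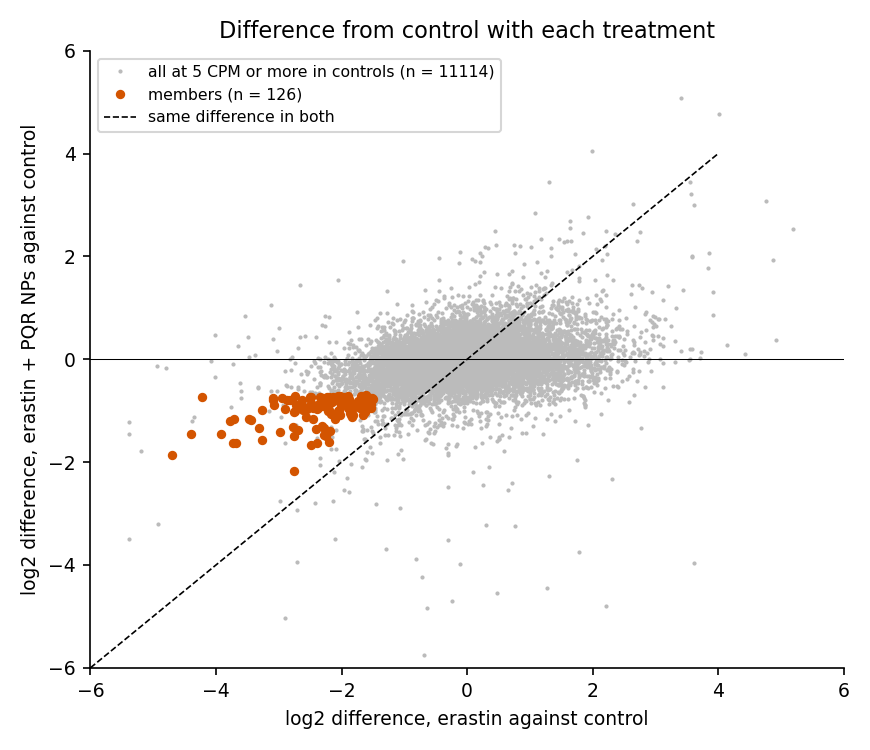
Log2 difference from control with erastin (x) and with erastin plus PQR NPs (y) for the 126 members (orange) and all 11114 transcripts at 5 CPM or more in controls (grey), of which 12 lie outside the axes; the dashed line marks equal differences. Both differences share the same control libraries. Members lie between the dashed line and 0, at -4.71 to -1.51 on x and -2.18 to -0.70 on y, with grey points on both sides of that range.

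The members lay within a continuous range, between strong falls nearer to control and others that stayed lower. Of the 562 transcripts with a fall of the required size, 202 were above -0.3 against control under co-treatment, 95 were between -0.5 and -0.3 and 81 between -0.7 and -0.5. Below the threshold, 70 were between -0.9 and -0.7, of which 62 were members, 41 between -1.1 and -0.9, of which 35 were members, 37 between -1.5 and -1.1, of which 21 were members, and 36 were lower still, of which 8 were members. Among the members, the one nearest that threshold stood at -0.703, and the nearest transcript that missed this condition alone stood at -0.699. There were 180 transcripts that met every other condition and missed this one. The fall with erastin was -1.51 in the member nearest that threshold and -1.47 in the nearest transcript outside, and 13 missed that condition alone. For the co-treatment against erastin the nearest values were 0.57 inside and 0.36 outside, with 1 transcript missing that condition alone. Another 10 had an erastin library that reached a co-treated one, and 5 had a co-treated library that reached a control one, with all else met.

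All 590 transcripts at 5 CPM or more in controls that fell by this size can be set beside the members, including those under the erastin minimum. There were 393 (66.6%) within 0.7 of control under co-treatment, with a median of -0.25 against control. Another 34 (5.76%) were below that and less than 0.5 above erastin, with a median of -1.95 against control and -0.11 against erastin. A further 37 (6.27%) met both thresholds on the co-treatment, as the members did, and failed another condition. The members, 21.4% of the 590, had a median of -0.91 against control and 1.28 against erastin. Their median fall with erastin was -2.22, beside -1.87 for the 393 and -1.86 for the 34. Their median control level was 43.8 CPM, beside 38.1 CPM for the 393 and 21.4 CPM for the 34. All these classes were cut from the same libraries, so the medians describe them and were not tested.

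The test across all 17123 transcripts, edgeR's quasi-likelihood test at an adjusted p of 0.05, used the same contrasts as the choice of members, so its counts only say how the members stand in it. It called 124 of 126 lower with erastin than in controls, where 26.3% of all transcripts tested were called lower. It called 118 higher under co-treatment than with erastin, where 25.3% of all were called higher. It called 111 lower under co-treatment than in controls, where 9.21% of all were called lower. None of the 126 was called in the opposite direction in any of the 3 comparisons, and 109 were called in all 3. Nothing is read from these counts, since the members were selected on these differences. The median log2 difference over all transcripts tested was 0.02, -0.02 and -0.03 in the same order.

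The 17 members not called in 1 or more comparisons had wide spread between libraries. The largest coefficient of variation of the 3 groups had a median of 55.6% in these and of 17.3% in the 109. The member of rank 66 by control level had 42.8, 41.2 and 39.8 CPM in controls, no count, 13.1 CPM and no count with erastin, and 27.5, 28.2 and 15.3 CPM under co-treatment. It was thus present in 1 of 3 erastin libraries at nearly a co-treated level. Rank 91 had 23.8, 29.3 and 19.9 CPM in controls, no count, 2.91 and 6.10 CPM with erastin, and 13.6, 12.6 and 15.6 CPM under co-treatment. Those were the only members not called lower with erastin, and 4 members in all had an erastin library with no count.

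A spread of another kind was seen at rank 11, where every library held many reads. It had 182, 174 and 209 CPM in controls, 25.9, 9.20 and 63.0 CPM with erastin, and 87.6, 98.6 and 146 CPM under co-treatment. In all 3 groups replicate 3 was the highest. This member was called with erastin and not when the co-treated cells were set against controls. The labels do not state how reads were divided among transcripts of a gene, and its part in these jumps was not tested.

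Over all members the median coefficient of variation was 10.2% in controls, 9.86% under co-treatment and 16.5% with erastin. Over all transcripts at 5 CPM or more in controls it was 10.5%, 8.04% and 10.7%. The members' erastin levels are low, and the part of counting error in this was not tested. The coefficient was 50% or more with erastin in 11 members and under co-treatment in 1, and reached 45.9% at most in controls. A gap between groups is required by the choice of members, so nothing is read from its size. The lowest control library was more than 1.2 times the highest co-treated library in 121 members. The lowest co-treated library was more than 1.2 times the highest erastin library in 119. The share of all transcripts with such gaps is not given here, so these counts describe the members alone.

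The same measure was also read in libraries left out when transcripts were chosen. The thresholds of the rule had been set with earlier results of these data known, and replicates may be technical. The left-out libraries are therefore not an independent check. The rule was applied to 6 libraries, leaving out replicate 1 of every group, and then replicate 2 and replicate 3 in turn. It chose 130, 133 and 142 transcripts, of which 105, 107 and 113 were among the 126. The order erastin below co-treatment below control was then read in the left-out libraries. It was found in 121 of 130, 122 of 133 and 134 of 142. Over all transcripts at 5 CPM or more in the controls used, 27.2%, 23.8% and 22.8% had that order in the same left-out libraries. Over all 3 turns it was 377 of 405 (93.1%) against a background of 24.6%. That background was not chosen for any difference between groups, so the gap partly follows from the choice. A transcript chosen in several turns is counted each time, so the 405 are not separate transcripts. A closer comparison is with all transcripts chosen only for a fall of this size with erastin, 632, 633 and 632 in number. Among them the order was seen in 72.5%, 70.6% and 66.5%.

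**Figure D5:**
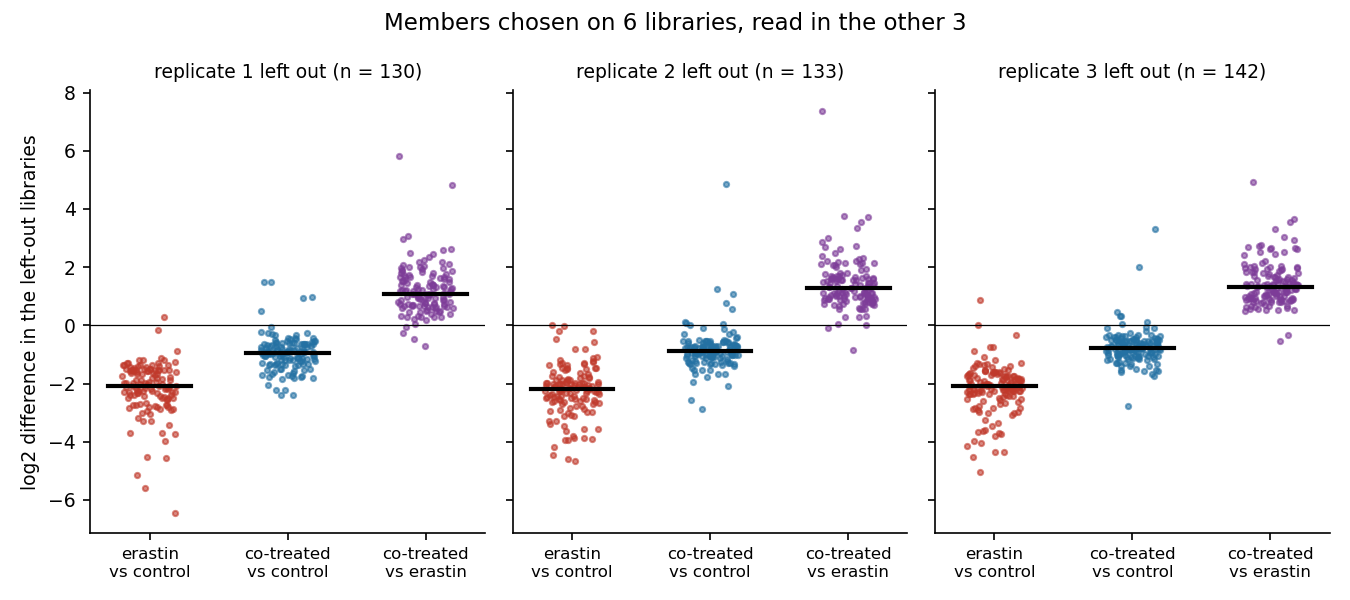
Log2 differences between the left-out control, erastin and co-treated libraries for the transcripts chosen on the other 6 libraries (points), with the median as a black bar, for each replicate number left out. The medians are -2.08, -2.18 and -2.09 for erastin against control, -0.95, -0.88 and -0.77 for the co-treatment against control, and 1.09, 1.27 and 1.32 for the co-treatment against erastin.

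Median sizes in the left-out libraries were mostly near those in the libraries used to choose. The median difference of erastin from control was -2.08, -2.18 and -2.09 there, beside -2.18, -2.18 and -2.19 in the libraries used to choose. For the co-treatment against control it was -0.95, -0.88 and -0.77, beside -0.92, -0.90 and -0.94. For the co-treatment against erastin it was 1.09, 1.27 and 1.32, beside 1.16, 1.21 and 1.23. Over all transcripts at 5 CPM or more in controls the medians in the left-out libraries were -0.07, -0.10 and -0.14, then 0.014, 0.031 and -0.0023, then 0.11, 0.16 and 0.18. Erastin was below control in 129 of 130, 132 of 133 and 140 of 142. The co-treatment was below control in 125, 124 and 135 of them and above erastin in 126, 131 and 140.

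The thresholds on size are a stricter condition than order. A transcript that meets all 3 also has the order, so the counts below could not exceed those for order. All 3 thresholds on size were met in the left-out libraries by 70 of 130, 89 of 133 and 80 of 142 of the transcripts chosen. The threshold below control was met by 92, 95 and 84, that on the fall by 105, 109 and 125, and that above erastin by 109, 126 and 139. The condition on the co-treatment against control was thus the one most often missed in 1 new library per group, in each of the 3 turns. It is also the condition that the most transcripts, 180 at any distance from the threshold, missed alone.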

How the data were processed

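The authors deposited raw counts in 1 table, whose rows are Ensembl rat transcripts and whose columns are libraries, per the file headers. The values are whole numbers without normalization. Libraries were made from poly(A) RNA with random hexamers and read as pairs, per the labels' protocols. HISAT2 2.2.1 and the build Rnor 6.0 are named per the submitters' processing notes; no role is named for either, and the counting program, annotation and use of strand are not stated, so isoforms, near-identical copies and overlapping transcripts are uncertain.

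Columns were assigned by the names in the titles. CPM and the rule for members were computed from the counts in Python 3.11.15. Transcripts were tested with the quasi-likelihood method of edgeR 4.0.16 in R 4.3.3 on the 9 libraries together, scaled by TMM, filtered by edgeR's default and adjusted by Benjamini-Hochberg over 17123 transcripts; DESeq2 1.42.0 and other scalings, filters and left-out libraries were alternatives. Both steps were run on simulated data as a check of the code. The rule was given less spread between libraries than seen here, and the test only changes with erastin. Replicate libraries differed by more than sampling noise (chi-square per degree of freedom 31.7 to 71.4).

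The members and lists were chosen with earlier results of these data known. As no transcript had a gene name, IDs were printed only for the 2 members with the largest fall with erastin and the next 2 by rise from erastin to the co-treatment. Members of other ranks were picked after their values were seen. The 14 gene lists, with 204 entries, hold gene names, which transcript IDs could not match. With 0 IDs matched, they and the marker genes were not used.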

Additional observations from a re-analysis of the deposited data

How the results depend on the processing

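Over the 8 other tools, scalings, filters and thresholds, the members called numbered 121 to 125 against 124 (erastin against control), 104 to 120 against 118 (co-treatment against erastin) and 82 to 121 against 111 (co-treatment against control). Of all transcripts tested, 17.7% to 27.9%, 18.1% to 28.6% and 3.02% to 11.7% were called in the same directions. When 1 library was left out, the members called numbered 121 to 125, 112 to 117 and 88 to 116. The shares of all transcripts were then 22.9% to 24.6%, 21.2% to 25.5% and 3.74% to 8.33%. The members were selected on these differences, so nothing is read from the counts. With the replicate number as a block the members called were 123, 116 and 109, beside 25.8%, 24.5% and 8.89% of all transcripts. No clear pairing of samples by number was seen. Deviations from the group mean correlated at -0.02 to 0.15 (median 0.013) for equal numbers and -0.15 to 0.14 (median -0.012) for different ones. With 3 libraries a group, such correlations cannot exclude a pairing. Of the calls of the 4 transcripts given by ID, 1 was lost, that of ENSRNOT00000017363 for the co-treatment against control at an adjusted p of 0.01 (log2 difference -1.55); no direction changed.

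Other settings of the rule gave 83 to 150 members. A log2 fall of 2 or more gave 83, with 37.9% of the fall left and 0.666%, 0.117% and 0.334% of the counts in controls, erastin and the co-treatment; a fall of 1 or more gave 1.28%, 0.326% and 0.684%; no condition on overlap gave 1.09%, 0.232% and 0.561%. With TMM-adjusted library sizes 138 were chosen, 120 of them among the 126, with 42.6% left and 1.06% of the counts in controls and 0.560% under co-treatment. With upper quartile sizes the co-treated share was 0.541%, with a pseudocount of 0.25 it was 0.531%, and with a pseudocount of 1 it was 0.505%, beside 0.208% with erastin and 42.4% left. Leaving out 1 library gave 118 to 141 members, 41.7% to 45.4% left, and shares of 0.948% to 1.10%, 0.201% to 0.232% and 0.492% to 0.562%. The order in left-out libraries held in 91.7% to 94.4% of the transcripts chosen. Depth limits the members near 1 CPM with erastin most.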
